A study of Mus musculus with 6 samples.

Results

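The immediate early genes and AP-1 genes described here are 10 genes, Fos, Fosb, Fosl2, Jun, Junb, Jund, Atf3, Egr1, Ier2 and Dusp1, found by their symbols among the 35421 gene rows that could be read from the deposited expression table. They were followed in bone marrow-derived macrophages (BMDMs), macrophages grown from mouse bone marrow with macrophage colony-stimulating factor, in 3 control libraries (Ctrl) and 3 libraries from cells given zoledronic acid (ZA). ZA is a nitrogen-containing bisphosphonate that blocks farnesyl diphosphate synthase of the mevalonate pathway and is used against bone resorption. Per the study's methods the marrow came from femurs of C57BL/6 mice and the culture lasted 7 days. Its results state that sequencing was done on cells 12 h after ZA was added. Both groups share strain, culture and growth factor, and the ZA concentration and the vehicle of the controls are not given for these libraries. The study's wild-type C57BL/6 mice were females obtained at 6 weeks of age, which the sources do not tie to these libraries by name. The sources do not state whether the 3 libraries of a group came from separate mice or cultures, so the p-values measure the spread between these libraries alone, which may be technical. Each library was measured at 1 time point, so a course over time was not analysed here.

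AP-1 is a dimeric transcription factor made of Fos and Jun proteins, which pair through a leucine zipper and bind DNA through a basic region, and Atf3 belongs to the same basic leucine zipper class. Immediate early genes are switched on within minutes of a stimulus without new protein synthesis, through MAP kinases acting on factors already in the cell such as serum response factor (SRF), its ternary complex partners and CREB. Their transcripts are short-lived, and the response is restrained by products of the same wave, among them Dusp1, a phosphatase that inactivates p38 and JNK. In macrophages several of these genes, though not all, are known for their rapid induction by bacterial products and by adherence.

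Sequence from RefSeq (GRCm38.p6) was matched for 8 of the 10 genes, Fos, Fosb, Fosl2, Jun, Junb, Jund, Atf3 and Dusp1. Shown here are the 150 bases before the annotated start of the 3 genes with separated groups in the expression data (Fos, Atf3 and Dusp1) and of Jun, the most abundant Jun-family transcript. Each is written 5′ to 3′ on the strand of the gene. Capitals mark the cyclic AMP response element (CRE) TGACGTCA, its core TGACG or CGTCA, the AP-1 variant TGACATCA and the TATA box TATAAA.
Fos (chr12:85473740-85473889, plus strand): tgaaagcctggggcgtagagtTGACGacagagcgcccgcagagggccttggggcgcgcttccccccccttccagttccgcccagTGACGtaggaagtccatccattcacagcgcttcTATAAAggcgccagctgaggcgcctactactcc
Jun (chr4:95052223-95052372, minus strand): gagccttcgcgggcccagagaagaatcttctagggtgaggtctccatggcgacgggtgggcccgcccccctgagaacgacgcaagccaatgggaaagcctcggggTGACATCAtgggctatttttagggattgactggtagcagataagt
Atf3 (chr1:191183334-191183483, minus strand): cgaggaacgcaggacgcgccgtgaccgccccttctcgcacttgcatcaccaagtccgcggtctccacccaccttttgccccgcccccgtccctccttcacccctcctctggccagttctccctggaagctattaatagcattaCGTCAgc
Dusp1 (chr17:26508473-26508622, minus strand): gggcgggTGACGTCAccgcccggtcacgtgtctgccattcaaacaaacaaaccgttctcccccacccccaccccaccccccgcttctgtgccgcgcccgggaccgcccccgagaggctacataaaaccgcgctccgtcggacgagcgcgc
The full CRE was matched in Dusp1 alone among the 8 genes, with its first base at -143 from the start. It was present in 1.62% of 27025 promoters searched over the same 250 bases before the start on both strands. These promoters were the first listed of each gene and were not limited to genes expressed in these libraries. The core, which the full CRE holds once on each strand, was matched in Fos (at -129 and -66), Fosb, Junb, Atf3 (at -7) and Dusp1, that is in 5 of 8 genes beside 17.9% of all promoters. The variant AP-1 site of Jun stood at -45, and its letters were in 3.02% of promoters. The TATA box was matched in Fos, at -33, and in 13% of promoters. The plain AP-1 site TGACTCA, in 4.43% of promoters, and the CArG box bound by SRF, in 1.4%, were matched in 0 of the 8 genes within this window. Bases further upstream were not searched, and Egr1 and Ier2 had no sequence, so sites there would be missed. GGGCGG or CCGCCC, the GC box, was in 6 of the 8 genes and 32.9% of promoters, and CCAAT or ATTGG was in Jun and Junb and in 34.5% of promoters. These matches describe letters in a window, and binding was not measured.

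**Figure D1:**
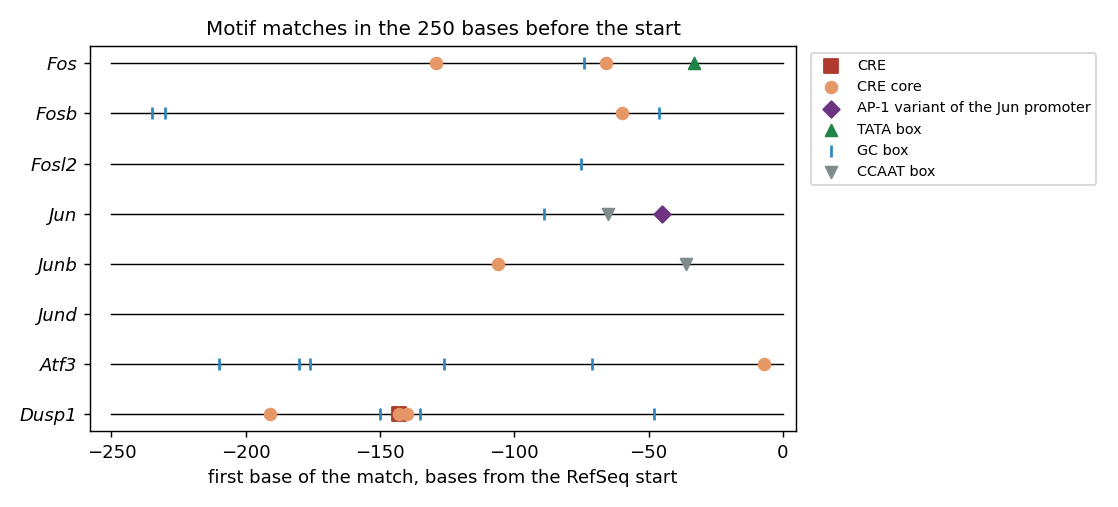
Positions of the motif matches in the 250 bases before the RefSeq start of the 8 genes with a sequence, each line 1 gene and each symbol the first base of a match on either strand, in bases from the start. Dusp1 carries the full CRE at -143, and Jund has no match.

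A further trait of several of these genes is a low number of exons. Jun, Junb, Jund and Ier2 have a single exon in the GENCODE annotation, 4 of the 10 genes, while single-exon genes were 1.67% of the 9306 tested genes that could be matched to it. Egr1 has 2 exons, and Fos, Fosb, Fosl2, Atf3 and Dusp1 have 4 each. The median number of exons was 3 for these genes and 9 for all genes matched. Their annotated spans, over all transcripts of a gene, had a median of 4698.5 bases, beside 23164 for the genes matched. Spans of at most 4000 bases were found in 4 of the 10 genes and in 7.44% of the genes matched. The spans ran from 1522 bases for Ier2 to 56539 for Dusp1, whose longest coding transcript has 1990 bases.

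Expression was deposited as FPKM, a fragment count divided by gene length and library total, which is a per-length scale on which levels of different genes can be set side by side. The libraries held 41230600 to 42155808 fragments, and libraries of 1 group differed by more than counting error, so none was a duplicate. At this depth 3 fragments, taken as the smallest amount shown, equal 0.021 FPKM for a gene of median length. The macrophage markers were all tested, with summed levels of 24600 to 28500 FPKM in Ctrl and 25500 to 29100 FPKM in ZA, and Lyz2, which encodes lysozyme, alone averaged 22700 FPKM. Dendritic cell and lymphocyte markers summed to at most 1.08 FPKM in any library, and mast cell and basophil markers to at most 2.96 FPKM. Neutrophil markers summed to 34.7 to 50.1 FPKM in Ctrl and 31.4 to 36.5 FPKM in ZA with Ly6g at 0, and stromal markers to 20.6 to 36.9 and 18.1 to 26.2 FPKM. In bulk RNA, fewer cells that express a gene and less of its RNA in each cell cannot be told apart.

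The members covered a wide range of levels, and their order of abundance was the same in every library. Atf3 stood first with a mean of 195 FPKM over the 6 libraries, at rank 282 of the 9800 genes tested (those whose FPKM averaged 1 or more), followed by Jun, Junb, Jund, Fos, Ier2, Dusp1, Fosl2, Egr1 and Fosb. The ranges of neighbours in this order did not overlap over the 6 libraries. The narrowest step was from Jun to Junb, a ratio of mean FPKM of 1.23, and the widest was from Egr1 to Fosb, a ratio of 22.7. Atf3 exceeded Jun by a ratio of 2.92. Fosl2 and Egr1 were among the lower genes tested, with means of 4.43 and 2.41 FPKM at ranks 6942 and 8348 of 9800.

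**Figure D2:**
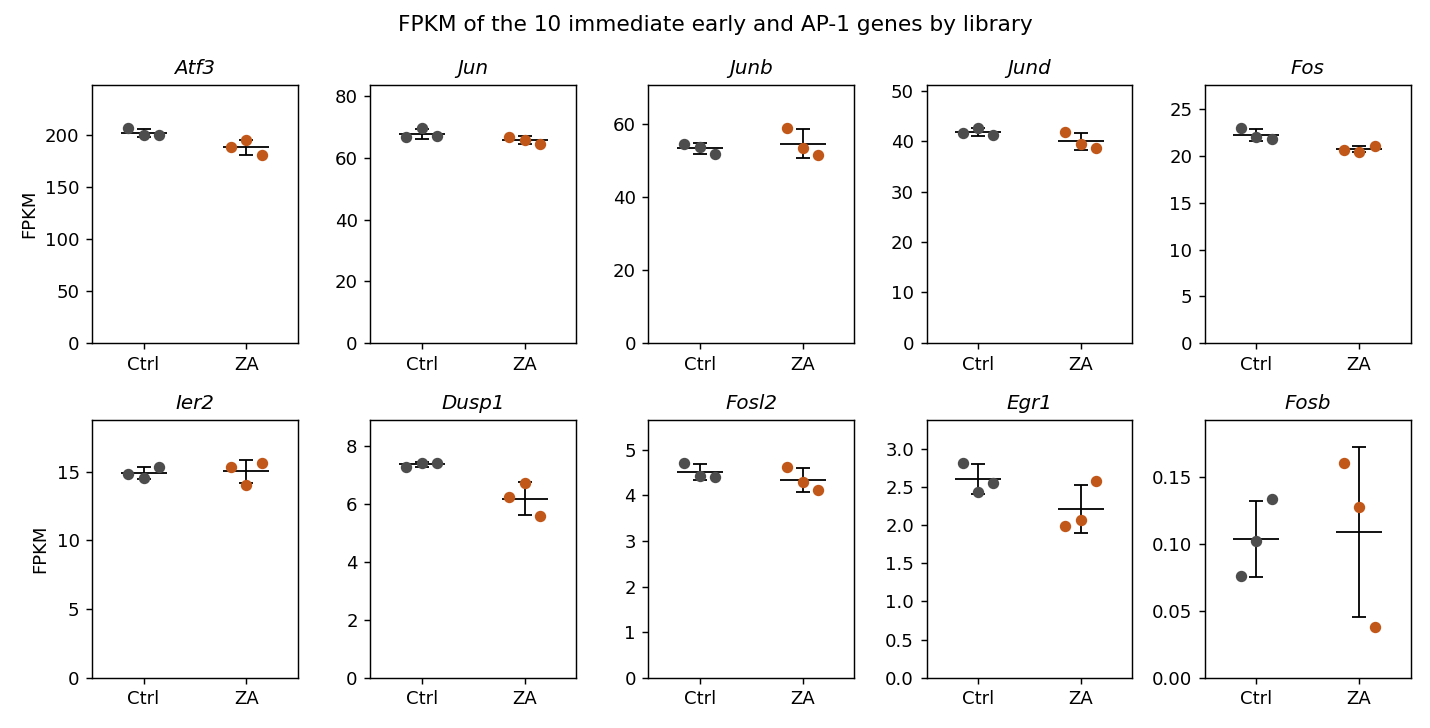
FPKM of each gene in each library, 1 panel per gene in order of abundance, with points for the 3 Ctrl and 3 ZA libraries, a dash for the mean and bars for the SD. The groups are separated in Atf3, Fos and Dusp1 and overlap in the other 7 panels. Each axis starts at 0.

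The comparison of ZA with Ctrl asked whether ZA changed the macrophages' transcripts. At 12 h it showed small differences in these genes, mostly toward lower levels. Dusp1, Atf3 and Fos were lower in every ZA library than in any Ctrl library, with mean differences of -16.02%, -7.025% and -6.919% of the Ctrl mean, while Jun, Jund, Fosl2 and Egr1 had lower means with overlapping libraries and Junb and Ier2 had higher means with overlapping libraries. None of the 9 genes tested passed the test across all genes (limma, Benjamini-Hochberg adjustment, adjusted p under 0.05), which called 36 of 9800 genes, or 0.367% (0.163% lower and 0.204% higher in ZA). At an unadjusted p under 0.05 the 3 genes with separated groups were lower and 0 were higher, beside 4.85% of all genes lower and 7.5% higher. Groups separated in the direction of lower ZA values were seen in 3 of the 9 genes and in 6.76% of all genes. Lower means were seen in 7 of the 9 and in 43.0% of all genes. The median log2 fold change, on the scale of log2(FPKM + 1) used for all fold changes here unless named otherwise, was -0.06 over the 9 genes and 0.01 over all genes tested. With voom on the recovered fragments, another tool of limma, 0 of the 9 genes passed the adjusted threshold, beside 1.35% of all genes. The same 3 were lower at an unadjusted p under 0.05 with voom and 0 were higher, beside 5.07% of all genes lower and 8.32% higher.

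**Figure D3:**
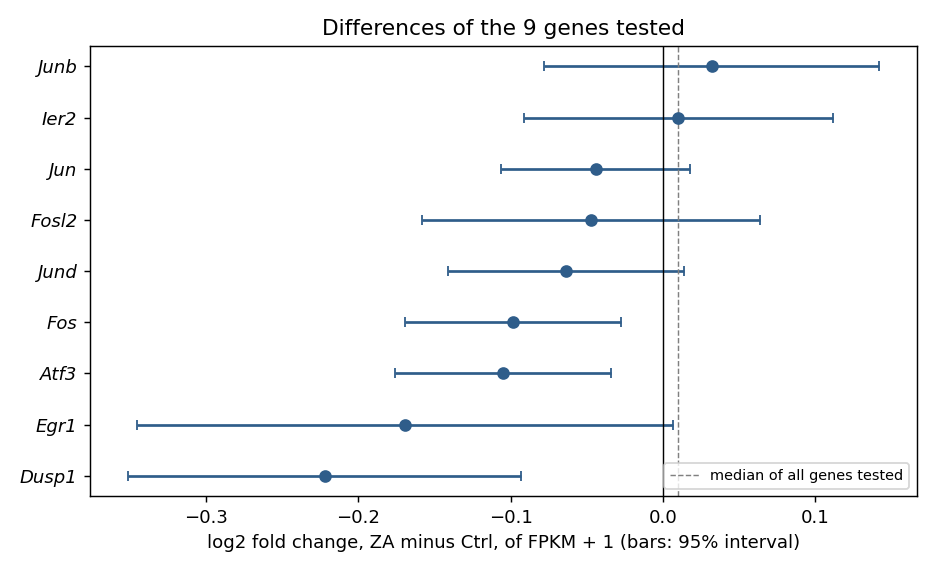
Log2 fold change of FPKM + 1, ZA minus Ctrl, for the 9 genes tested, with points for the estimate of limma and bars for its 95% interval, and a dashed line at the median of all genes tested, 0.01. The intervals of Dusp1, Atf3 and Fos lie below 0, and those of the other 6 genes include 0.

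Dusp1, the phosphatase of the feedback loop, had the largest mean difference over the 6 libraries, close to that of Egr1 (-15.06% of the Ctrl mean), and without ZA 3 the log2 fold change of Egr1 was the larger (-0.25 against -0.16). Its Ctrl libraries were at 7.25, 7.38 and 7.41 FPKM and its ZA libraries at 6.23, 6.70 and 5.58 FPKM, or 7.35 ± 0.0828 against 6.17 ± 0.561 (SD, n = 3 each). The highest ZA library stayed below the lowest Ctrl library. The log2 fold change was -0.22 (standard error 0.06, 95% interval -0.35 to -0.09, adjusted p = 0.175 by limma), and the log2 ratio of the mean FPKM without the added 1 was -0.25. The gene was counted with 457 to 601 fragments a library, for which counting error alone gives a coefficient of variation of 4.10% in Ctrl and 4.48% in ZA. The Ctrl libraries varied by 1.13%, less than counting error, and the ZA libraries by 9.09%, more than counting error.

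Atf3, a stress-induced factor known in macrophages as a repressor of inflammatory genes, was measured most deeply, with 15061 to 17032 fragments a library. Its Ctrl libraries were at 206.8, 200.4 and 199.9 FPKM and its ZA libraries at 188.7, 194.9 and 180.7 FPKM, a mean of 202 ± 3.83 against 188 ± 7.12 (SD, n = 3 each). The groups did not overlap, and the closest libraries were Ctrl 3 and ZA 2. In limma the difference was -0.11 on the log2 scale with an interval (95%) from -0.18 to -0.03, a standard error of 0.03 and an adjusted p of 0.236.

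Among the Fos-family subunits, Fos was the abundant one. Fos was at 23.0, 22.1 and 21.8 FPKM in Ctrl and at 20.7, 20.4 and 21.1 FPKM in ZA, with means of 22.3 ± 0.639 and 20.8 ± 0.341 (SD, n = 3 each). Every ZA library was below every Ctrl library, and limma gave a difference of -0.10 on the log2 scale, with a 95% interval of -0.17 to -0.03, a standard error of 0.03 and an adjusted p of 0.257. Fosl2, which encodes Fra-2, was at 4.72, 4.43 and 4.395 FPKM in Ctrl and 4.61, 4.29 and 4.11 FPKM in ZA. These libraries overlapped, and the log2 fold change was -0.05 with a 95% interval of -0.16 to 0.06. Fosb was near the limit of the measurement, with 6 to 25 fragments a library, and its mean was below the FPKM of 1 that a gene needed to enter the test. It was at 0.0763, 0.102 and 0.133 FPKM in Ctrl and 0.161, 0.127 and 0.0377 FPKM in ZA, where 3 fragments of this gene equal 0.0191 FPKM. Its ZA libraries held both the highest and the lowest value, and a difference was not detectable at this depth.

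The Jun-family subunits, which can pair with each other as well as with Fos proteins, were the main AP-1 transcripts and differed little. Jun was at 66.7, 69.7 and 67.0 FPKM in Ctrl and 66.9, 65.9 and 64.5 FPKM in ZA, a log2 fold change of -0.04 (95% interval -0.11 to 0.02, adjusted p = 0.544 by limma). Jund was at 41.7, 42.6 and 41.1 FPKM in Ctrl and 41.8, 39.4 and 38.7 FPKM in ZA, a log2 fold change of -0.06 (95% interval -0.14 to 0.01, adjusted p = 0.484 by limma). In both genes ZA 2 and ZA 3 were below all Ctrl libraries while ZA 1 was within the Ctrl range. Junb, which pairs with Fos proteins but activates fewer targets than Jun, was at 54.7, 53.9 and 51.9 FPKM in Ctrl and 59.0, 53.7 and 51.6 FPKM in ZA. Its higher ZA mean came from ZA 1, and without that library the log2 fold change went from 0.03 to -0.02. The 95% interval of Junb with all libraries was -0.08 to 0.14. Junos, a transcript on the strand opposite to Jun, was listed at 0.0452 to 0.0659 FPKM, and since the sources used here do not say whether fragments were counted by strand, fragments of overlapping opposite transcripts cannot be told apart.

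Egr1, a zinc finger factor, and Ier2, a nuclear protein of the immediate early wave, are not AP-1 subunits. Egr1 was at 2.82, 2.44 and 2.56 FPKM in Ctrl and 1.99, 2.07 and 2.58 FPKM in ZA, with means of 2.60 ± 0.197 and 2.21 ± 0.320 (SD, n = 3 each). ZA 1 and ZA 2 were below all Ctrl libraries, and ZA 3 was within their range. The log2 fold change of Egr1 was -0.17 (standard error 0.08, 95% interval -0.35 to 0.01, adjusted p = 0.423 by limma), from 252 to 361 fragments a library, and without ZA 3 it was -0.25 (adjusted p = 0.262). Ier2 was at 14.8, 14.5 and 15.3 FPKM in Ctrl and 15.4, 14.0 and 15.7 FPKM in ZA. Its ZA libraries held its lowest and its highest values, and the log2 fold change was 0.01 with a 95% interval of -0.09 to 0.11.

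The 7 AP-1 subunit transcripts (Fos, Fosb, Fosl1, Fosl2, Jun, Junb and Jund) together summed to 191 ± 3.51 FPKM in Ctrl and 186 ± 6.998 FPKM in ZA (SD, n = 3 each), with an exact permutation p of 0.4 (two-sided). The smallest p that 3 against 3 libraries allow is 0.1, so no share could pass 0.05, and 11 such quantities were compared. Fos-family genes held 15.1%, 14.3% and 14.5% of that sum in the Ctrl libraries, against 13.6%, 13.8% and 14.3% in the ZA libraries. Its mean was lower in ZA by a difference of -0.69 percentage points, with ZA 3 just above the lowest Ctrl library (exact permutation p = 0.2, 0.367 after Benjamini-Hochberg adjustment). Junb made up 28.5%, 27.8% and 27.7% in Ctrl and 30.4%, 29.1% and 28.6% in ZA, so that each ZA library was above each Ctrl library (exact permutation p = 0.1, adjusted 0.367). The closest were Ctrl 1 at 28.48% and ZA 3 at 28.55%. Shares of the same sum depend on each other, and the FPKM of Junb and of Jund overlapped between the groups. Jund made up 21.7%, 22.0% and 22.0% in Ctrl and 21.5%, 21.4% and 21.4% in ZA, below Ctrl in each library (exact permutation p = 0.1, adjusted 0.367). Jun held 35.5% ± 0.663 in Ctrl and 35.3% ± 0.727 in ZA (SD, n = 3 each). Jun-family FPKM over Fos-family FPKM averaged 5.86 ± 0.186 for Ctrl and 6.20 ± 0.188 for ZA (exact permutation p = 0.2, n = 3 each). Atf3 FPKM divided by the subunit sum gave 1.077, 1.034 and 1.069 for Ctrl, against 0.972, 1.057 and 1.001 for ZA, with overlap (exact permutation p = 0.2, n = 3 each).

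**Figure D4:**
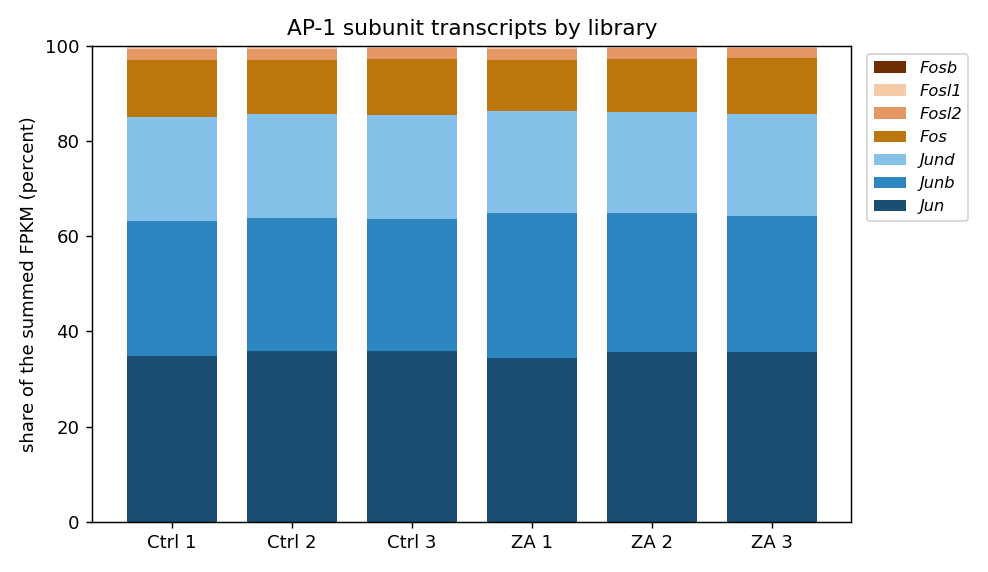
Share of each of the 7 AP-1 subunits in their summed FPKM, in percent, 1 bar per library, with Jun-family genes in blue and Fos-family genes in brown. Jun, Junb and Jund hold most of each bar in all 6 libraries, and the Fos-family share lies between 13.6% and 15.1%.

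From library to library the genes varied together only in part. Library ZA 1 held values above its group mean in 7 of the 9 genes tested, and Ctrl 3 in 2 of 9. The matching shares over all genes tested were not counted. Over the 6 libraries, as a description, the levels of Dusp1 and Atf3 ran closest together (Pearson r = 0.951), followed by Jun and Jund (0.886) and Fos and Egr1 (0.851), and Egr1 and Junb ran in opposite directions (-0.583). Libraries share their total and their RNA sample across genes, and the group difference enters each of these values. The mean standardised level of the 9 genes was 0.718, 0.461 and 0.24 SD in Ctrl 1 to 3 and 0.055, -0.674 and -0.8 SD in ZA 1 to 3, which placed ZA 1 nearer to Ctrl 3 than to the other ZA libraries. The 5 other genes whose levels were most like this profile over the 6 libraries were Cd44, a hyaluronan receptor (Pearson r = 0.994), Mpo, the peroxidase of neutrophil granules (0.988), Snn (0.985), Pld3, a lysosomal nuclease (0.982), and Tpcn2, a lysosomal cation channel (0.982). Altogether 188 of 9791 genes reached 0.9. Mpo belongs to the neutrophil list, of which 6 of 11 genes were tested, 6 had a lower mean in ZA and 3 were lower at an unadjusted p under 0.05. Of the 10 macrophage markers 5 were higher at an unadjusted p under 0.05 and 0 lower, and of 5 stromal markers tested 5 had a lower mean in ZA and 1 was lower at that threshold. The part of these markers in the differences of the immediate early genes was not tested.

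Genes around the members were counted in the same fit. Of 14 other AP-1 family basic leucine zipper genes 10 were tested, 0 were at an unadjusted p under 0.05, and the median log2 fold change was 0.02. The 3 with the largest statistic were Jdp2, a dimerization partner that represses AP-1 targets (0.15, adjusted p = 0.461 by limma), Atf2, a target of p38 and JNK (0.07), and Mafk, a small Maf protein (-0.06). Of 41 other immediate early and primary response genes 34 were tested, with 5 higher and 3 lower at an unadjusted p under 0.05 and a median of 0.01.

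Klf2, a zinc finger factor known as a restraint on inflammatory genes in myeloid cells, was the one gene of these lists that passed the adjusted threshold. It was at 6.98, 7.603 and 7.15 FPKM in Ctrl and 9.91, 12.2 and 11.8 FPKM in ZA, and it rose in ZA (limma's adjusted p = 0.0409), with a difference of 0.57 on the log2 scale and an error of 0.07. The call was lost on leaving out any single library other than ZA 1, with adjusted p-values up to 0.183, and when all restored genes were tested (adjusted p = 0.370). Cebpd, a basic leucine zipper factor outside the AP-1 family, was higher in each ZA library, with means of 10.02 and 12.7 FPKM (log2 fold change 0.31, adjusted p = 0.0895 by limma). Plk2, a serine/threonine kinase, was at means of 52.8 and 49.4 FPKM (-0.10, adjusted p = 0.205). Named after their values were seen, to complete the counts, Nfkbiz, which encodes an atypical nuclear IκB protein (0.23), the antiproliferative gene Btg2 (0.12) and the kinase gene Sik1 (0.10) were the other higher genes, and the growth regulator Myc (-0.22) and Dusp2 (-0.12) the other lower ones.

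Upstream of the members, the next list held SRF, its Mrtf cofactors and the Elk ternary complex factors. It also held the CREB-family genes Creb1, Atf1 and Crem and the coactivators Crebbp and Ep300. Of these 11 genes 10 were tested, 1 was lower at an unadjusted p under 0.05, and the median was -0.01. That gene was Srf itself, which binds the CArG boxes of immediate early genes, with 7.45, 7.33 and 6.94 FPKM in Ctrl and 6.77, 6.62 and 6.54 FPKM in ZA (-0.11, adjusted p = 0.305 by limma). The groups did not overlap. Elk3 (-0.08), a ternary complex factor, and Mrtfb (-0.09), an SRF coactivator, had the next statistics. Elk1 was at -0.05, Mrtfa at -0.0009 and Elk4 at 0.04. The CREB-family genes and coactivators tested were Creb1 (0.02), Atf1 (-0.02), Crebbp (0.01) and Ep300 (0.04). Of 32 genes of the MAP kinase cascade 27 were tested, with 2 higher and 1 lower at an unadjusted p under 0.05 and a median of 0.01. Mapk14, which encodes p38α, was at means of 46.4 and 50.6 FPKM (0.12, adjusted p = 0.110 by limma). Mapkapk2, a kinase activated by p38, was at 109 and 117 FPKM (0.10), and Map2k3, a kinase that activates p38, was at 29.2 and 26.9 FPKM (-0.12, adjusted p = 0.178 by limma).

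Of 11 other dual specificity phosphatases of MAP kinases 8 were tested, 1 was lower at an unadjusted p under 0.05 and the median was -0.02. Dusp2, a nuclear phosphatase like Dusp1 and also on the list of other immediate early genes, was at 4.01, 3.98 and 3.89 FPKM in Ctrl and 3.46, 3.54 and 3.67 FPKM in ZA (-0.12, adjusted p = 0.266 by limma). Its groups did not overlap. Dusp4, another nuclear phosphatase, was at means of 8.04 and 7.66 FPKM (-0.06) without overlap, and Dusp22 at 9.20 and 9.67 FPKM (0.06) with overlap. The median log2 fold changes of the 5 lists, from -0.02 to 0.02, stood beside 0.01 over all genes and -0.06 over the members. The SRF list mixes SRF and its partners with CREB-family genes and coactivators. Within it Srf (-0.11), Mrtfb (-0.09), Elk3 (-0.08) and Elk1 (-0.05) were lower, Mrtfa was at -0.0009 and Elk4 was higher (0.04). Lower values were thus not particular to the members.

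**Figure D5:**
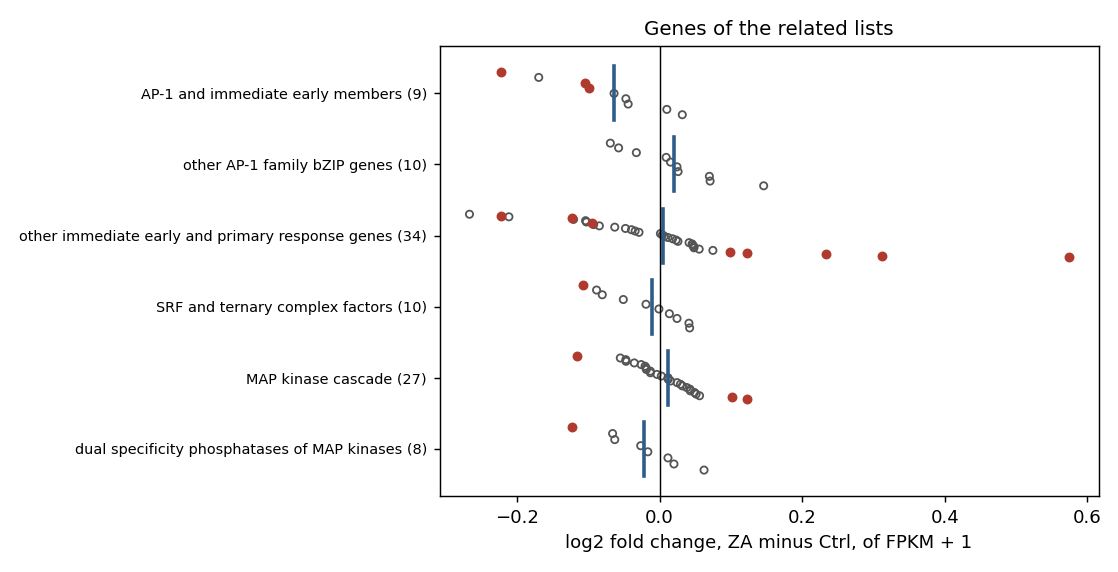
Log2 fold change of FPKM + 1, ZA minus Ctrl, of each gene tested in the members and the 5 related lists (number tested in brackets), filled in red at an unadjusted p under 0.05, with a blue bar at each list's median. The members' median lies at -0.06 and those of the other lists between -0.02 and 0.02, and Klf2 is the point farthest to the right at 0.57. The SRF list also holds CREB-family genes and the coactivators Crebbp and Ep300.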

How the data were processed

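RNA of 3 Ctrl and 3 ZA BMDM libraries was sequenced as paired-end reads of 150 bases. The authors deposited 1 table of FPKM values. The submitters' processing notes name the mouse build mm 9, and the aligner, counting program and annotation are not given in the sources used here. The sample labels name 2 library kits, VAHTS and SMARTER.

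Of the 35434 deposited rows 11 were intact, and in the others symbol and values ran together. They were separated at decimal places that the number format allows and by the rule that an FPKM is a whole number of fragments scaled by length and library total. This restored 35421 rows, with 99.7% of the fragments of each library, and 13 rows were left out. Values were compared as log2(FPKM + 1), two-sided, with limma 3.58.1 in R 4.3.3 (eBayes with a trend), Benjamini-Hochberg adjusted. The 9800 genes whose FPKM averaged 1 or more were tested. Before that, the fit was checked on artificial data with 200 genes changed 2-fold. It called 197 of these and 13 unchanged genes, and with 0 genes changed it called 0. Differences as small as those of the members were not simulated. Shares of subunits were compared with exact permutation tests in SciPy 1.17.1, and tables were read with pandas 2.3.3 in Python 3.11.15. The added 1 makes fold changes of low genes smaller. The members and lists were chosen with earlier results of these data known. Named are all members, the 3 genes of each related list with the largest moderated statistic, and the 5 genes most like the members' mean profile. Promoter letters are from RefSeq GRCm38.p6, and exons from GENCODE. Alternatives were a pseudocount of 0.1, no filter, a filter at a mean FPKM of 5, centring, quantile normalization, a prior without a trend, the replicate block, voom on recovered fragments and leaving out each library. The 95% intervals are limma's and rest on the spread between libraries, while coefficients of variation named as counting error cover that error only.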

Additional observations from a re-analysis of the deposited data

How the results depend on the processing

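Fos, Atf3 and Dusp1 were lower at an unadjusted p under 0.05 in all 14 alternatives, and no member passed the adjusted threshold in any of them (lowest adjusted p by limma 0.197, 0.122 and 0.104). Log2 fold changes ranged from -0.11 to -0.08 for Fos, -0.13 to -0.08 for Atf3 and -0.28 to -0.16 for Dusp1. Egr1 joined them when libraries were centred on the median and without ZA replicate 3, and Jund without ZA replicate 1. At a filter of 5, Fosl2 and Egr1 were not tested, and without a filter Fosb was at 0.00 (unadjusted p = 0.929). Junb ranged from -0.0227 (without ZA replicate 1) to 0.0733 without single libraries. Ier2, near 0 throughout, turned to -0.0021 with centring and -0.0054 with quantile normalization, and without single libraries ranged from -0.0186 to 0.0551. Centring and quantile normalization changed the split of genes at an unadjusted p under 0.05 from 735 higher and 475 lower to 508 and 664, and to 574 and 589. The number of genes called moved from 36 to 20 with quantile normalization, 1 with a prior without a trend, 132 with voom, and 0 to 25 when leaving out single libraries (0 without ZA replicate 2). The cause was not tested. With the replicate block 78 genes were called, none of them a member, and Cebpd passed (adjusted p = 0.0440 by limma), as it did with voom (0.0290), where Mapk14 passed too (0.0415). Klf2 also lost its call with a prior without a trend (adjusted p = 0.0995). Deviations from the group mean correlated at 0.284, 0.0393 and 0.280 for Ctrl and ZA libraries with the same number. For libraries with unlike numbers the correlations ran from -0.2975 to 0.0334. Whether the replicate numbers mark a shared culture is not stated in the sources and was not tested.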
